A study of Mus musculus with 31 samples.

Results

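The blood endothelial genes are 10 genes expressed by the cells that line blood vessels: Kdr, Flt1, Tek, Tie1, Eng, Pecam1, Cdh5, Emcn, Plvap and Ehd3. They were chosen by symbol, and all 10 were found among 23509 genes counted by RNA sequencing of whole kidney. The kidneys came from 12 Pcy/CD1 mice injected with PBS, 14 Pcy/CD1 mice injected with RGLS4326 and 5 age-matched WT/CD1 mice that were untreated. All were male per the labels or the study's text. Pcy/CD1 mice carry the pcy mutation on the outbred CD1 background and develop slowly progressive polycystic kidneys. RGLS4326 is an oligonucleotide that binds the microRNA miR-17, and it was injected under the skin at 25 mg/kg, monthly per the labels, from 5 weeks of age. Kidneys were taken at 30 weeks. The PBS mice share the mutation and were also injected, without the oligonucleotide, but the sample labels give their dosing as weekly while the protocol text reads as monthly for both groups, so a difference in dosing interval cannot be told apart from treatment. The wild-type mice have neither the mutation nor injections, and those 2 cannot be told apart in comparisons with wild type. The comparisons ask whether endothelial transcripts differed in cystic kidneys and whether they differed with treatment.

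Endothelial cells form the inner wall of arteries, capillaries and veins, and in the kidney they line the glomerular tuft, the capillaries around the tubules and the vasa recta. Their survival depends on VEGF-A, made largely by podocytes and tubular cells and read by the receptors encoded by Kdr and Flt1, and on angiopoietins, read by the receptor encoded by Tek. Other genes in the group encode proteins that hold the cells together (Pecam1, Cdh5), coat them (Emcn), bridge their small openings (Plvap), modify signalling (Tie1, Eng) or traffic membranes in glomerular endothelium (Ehd3).

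The libraries held between 14892524 and 27459962 counts on genes, and a member had between 240 and 3710 counts in a mouse, so no member was near the limit of detection. Values are CPM, counts set relative to library size, after TMM scaling, which corrects for a few genes taking a large share of a library. A fold change is called where edgeR's quasi-likelihood test over 15185 genes gave a Benjamini-Hochberg adjusted p under 0.05. In PBS-treated Pcy against wild-type kidneys 37.7% of those genes were called higher and 36.6% lower, which is the background for each count below. Wild-type mice 3 and 4 were far more alike than other wild-type pairs, with a chi-square per gene of 2.69 against at least 16.1, but they differed by more than the sampling noise and were kept as separate mice. RGLS4326-treated mouse 9 stood apart: its Lcn2, a tubular injury transcript, was at 2.76 CPM, inside the wild-type range of 0.944 to 11.2 CPM, and it was the highest of the 14 treated mice for 8 of the 10 members. Lcn2 averaged 583 ± 336 CPM (SD, n = 12) in PBS-treated and 333 ± 193 CPM (SD, n = 14) in RGLS4326-treated mice, mouse 9 included, and was not called between these groups.

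Against wild type, 4 of the 10 members fell in PBS-treated Pcy kidneys and none rose: Kdr, Tek, Ehd3 and Flt1. The receptor genes Kdr and Tek and the glomerular gene Ehd3 had the largest differences, while Cdh5, Eng and Tie1 had log2 fold changes of 0.00, −0.03 and 0.13 and did not pass. RGLS4326 treatment was not followed by a called difference from PBS in any member. In treated mice Kdr, Ehd3 and Tek were lower than in wild type by the same test, and the call for Tek depended on single mice and on the fit. A count of 4 of 10 is close to the 36.6% of all genes called lower, so the count by itself does not set the members apart. All 4 also passed an absolute log2 fold change over 0.5, where the background of lower genes was 17.8%. The median log2 fold change was −0.36 over the members and 0.01 over all genes tested. In whole kidney, fewer endothelial cells and less RNA per endothelial cell cannot be told apart.

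**Figure D1:**
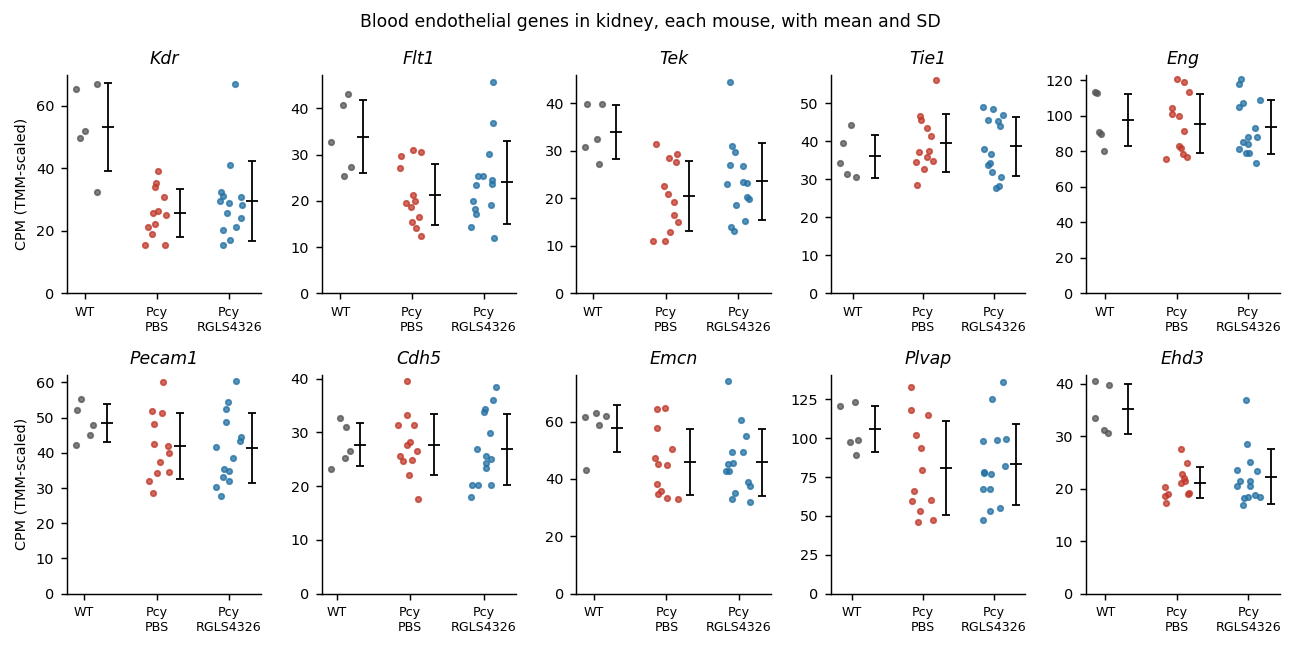
CPM of each member (vertical axis, from 0) in each mouse of the wild-type, Pcy PBS and Pcy RGLS4326 groups, with the mean and SD as a bar at the right of each group. Ehd3 has no PBS-treated mouse in the wild-type range, while Cdh5, Eng and Tie1 cover similar ranges in the 3 groups.

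Kdr encodes the main signalling receptor for VEGF-A and lies at chr5:75932827-75978458 on the minus strand of GRCm38. Wild-type mice 1 to 5 had 51.8, 32.4, 65.5, 67.1 and 49.9 CPM. PBS-treated mice ran from 15.5 through a median of 25.4 to 39.2 CPM, and RGLS4326-treated mice from 15.6 through 28.6 to 66.9 CPM. Of the PBS-treated mice 9 of 12 were below every wild-type mouse, and the overlap came from wild-type mouse 2, the lowest of its group. Kdr fell by 1.05 on the log2 scale in PBS-treated mice (SE 0.24, adjusted p = 0.000226, edgeR).

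Flt1 encodes a second VEGF receptor that binds the ligand tightly and also exists as a soluble trap, and it lies at chr5:147561604-147726011 on the minus strand. Its wild-type values were 32.7, 25.5, 43.1, 40.7 and 27.4 CPM. PBS-treated mice ran from 12.4 through 19.7 to 30.99 CPM and RGLS4326-treated mice from 12.01 through 23.6 to 45.7 CPM. The groups overlapped, with 8 of 12 PBS-treated mice below the wild-type range. Flt1 fell by 0.67 in PBS-treated mice (SE 0.23, adjusted p = 0.0103, edgeR). The bases before the starts that RefSeq's promoter table lists for these related receptors are shown, to set what precedes each gene side by side, on GRCm38.p6 and 5′ to 3′ on the gene's strand. Capitals mark an ETS core, the letters CAGGAA or CCGGAA on either strand, which endothelial transcription factors of the ETS family bind. The first is at chr5:75978456-75978705 and the second at chr5:147726012-147726261.
Kdr: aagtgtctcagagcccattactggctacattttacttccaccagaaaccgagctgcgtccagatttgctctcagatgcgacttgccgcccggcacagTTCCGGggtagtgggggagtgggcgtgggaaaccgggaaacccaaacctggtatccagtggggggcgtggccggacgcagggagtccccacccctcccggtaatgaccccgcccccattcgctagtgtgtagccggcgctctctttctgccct
Flt1: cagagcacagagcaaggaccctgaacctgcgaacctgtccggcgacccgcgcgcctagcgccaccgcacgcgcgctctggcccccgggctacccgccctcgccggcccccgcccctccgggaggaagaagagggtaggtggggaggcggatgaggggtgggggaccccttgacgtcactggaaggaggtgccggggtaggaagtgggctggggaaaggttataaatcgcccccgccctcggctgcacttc

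Kdr held a single such core in its window and Flt1 none. Among the 7 members with a promoter in the RefSeq table (the above, Emcn, Ehd3, Tek, Tie1 and Eng), 6 held either core within the whole listed promoter, which runs a little past the start. The same was true of 41.4% of 32851 listed promoters. A match is only a run of letters, and its absence says nothing of the factor.

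Tek and Tie1 encode the paired angiopoietin receptor complex: Tek binds the ligands, and Tie1, an orphan receptor, modifies Tek. Tek lies at chr4:94739289-94874976 on the plus strand and Tie1 at chr4:118471191-118490061 on the minus strand. Tek had 32.5, 27.2, 39.9, 39.8 and 30.7 CPM in wild-type mice 1 to 5. PBS-treated mice ran from 11.1 through 20.0 to 31.4 CPM and RGLS4326-treated mice from 13.2 through 23.1 to 44.4 CPM. The groups overlapped, with 8 of 12 PBS-treated and 11 of 14 RGLS4326-treated mice below the wild-type range. Tek fell by 0.73 in PBS-treated mice (SE 0.23, adjusted p = 0.00613, edgeR).

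Tie1 in the same mice gave 34.4, 31.5, 44.1, 39.5 and 30.6 CPM in wild type, 28.4 through 37.2 to 56.1 CPM with PBS and 27.8 through 37.2 to 49.1 CPM with RGLS4326. The groups overlapped, and Pcy mice lay on both sides of the wild-type range, with 1 PBS-treated mouse below and 3 above it and 3 RGLS4326-treated mice below and 5 above it. The log2 fold change of Tie1 was 0.13 (95% interval −0.16 to 0.42, adjusted p = 0.401, edgeR), an interval that does not reach the estimate for Tek. The windows before their listed starts, at chr4:94739039-94739288 for Tek and chr4:118489850-118490099 for Tie1, are shown because these partner genes parted, with ETS cores in capitals as before.
Tek: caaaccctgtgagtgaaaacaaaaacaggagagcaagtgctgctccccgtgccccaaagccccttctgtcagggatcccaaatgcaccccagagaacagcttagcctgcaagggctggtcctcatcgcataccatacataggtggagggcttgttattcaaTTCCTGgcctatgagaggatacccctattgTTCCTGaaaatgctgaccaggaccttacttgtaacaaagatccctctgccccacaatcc
Tie1: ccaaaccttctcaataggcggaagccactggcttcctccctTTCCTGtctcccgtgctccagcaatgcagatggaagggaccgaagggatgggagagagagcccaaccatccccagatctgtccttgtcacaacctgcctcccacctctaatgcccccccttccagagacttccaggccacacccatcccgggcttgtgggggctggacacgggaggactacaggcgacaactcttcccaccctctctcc

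Both windows held the same ETS core, 2 of them before the listed start of Tek and 1 before that of Tie1. These letters thus precede the listed starts of the gene that fell and of the gene that did not pass. Most of the Tie1 window, with its core, lies inside the gene as annotated above, whereas the Tek window ends just before its gene. The windows are therefore not like regions of the 2 genes.

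Ehd3 encodes a membrane trafficking protein that in mouse kidney is known from glomerular endothelium, and it lies at chr17:73804134-73832094 on the plus strand. Wild-type mice 1 to 5 had 33.4, 31.2, 40.5, 39.8 and 30.6 CPM. PBS-treated mice ran from 17.3 through 20.8 to 27.7 CPM and RGLS4326-treated mice from 16.9 through 21.0 to 37.0 CPM. All 12 PBS-treated mice lay below all 5 wild-type mice, which was true of 21.9% of the genes tested and of no other member. Among the treated mice 13 of 14 lay below that range, and the exception was mouse 9. Ehd3 fell by 0.73 in PBS-treated mice (SE 0.13, adjusted p = 7.97e-06, edgeR). It also varied least among the PBS-treated mice, with a coefficient of variation of 13.96% against 36.0% for Tek and 37.4% for Plvap.

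Because RGLS4326 binds miR-17, the members were searched for sites of that microRNA. The mature sequences, with the shared seed (bases 2 to 8) in capitals, are from RefSeq.
mmu-miR-17-5p: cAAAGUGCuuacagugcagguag
mmu-miR-20a-5p: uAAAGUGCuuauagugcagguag
mmu-miR-93-5p: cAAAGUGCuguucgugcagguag
mmu-miR-106b-5p: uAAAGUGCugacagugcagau

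The longest annotated 3′ untranslated region of 1 member, Ehd3, held a match to that seed, whereas 13.98% of 13832 genes tested with such a region did. The match in Ehd3 is at chr17:73831227-73831256 and pairs with the seed but lacks the adenosine that would make it the longest site type; the matched letters are in capitals.
Ehd3 site: gagcagggttagGCACTTTctatgtattag

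No other member held one, and no member held the longer type, which 4.29% of genes did. Ehd3 had a log2 fold change of 0.08 with RGLS4326 against PBS (95% interval −0.12 to 0.27, adjusted p = 0.590, edgeR).

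The remaining members did not pass the test against wild type. Emcn encodes a sialomucin of the capillary and venous surface and lies at chr3:137341067-137432185. It had 43.1, 58.7, 62.9, 61.5 and 61.8 CPM in wild type, 33.0 through 44.97 to 64.7 CPM with PBS and 32.04 through 44.1 to 74.2 CPM with RGLS4326. Wild-type mouse 1 was well below the other wild-type mice, and the groups overlapped. Its log2 fold change was −0.33 (95% interval −0.67 to 0.01, adjusted p = 0.0756, edgeR), and it passed the same test when that mouse was left out. Plvap, at chr8:71497765-71511752, encodes the protein of the diaphragms that close endothelial windows and is sparse in mature glomeruli. It had 98.9, 89.3, 123, 121 and 97.5 CPM in wild type, 45.9 through 72.7 to 133 CPM with PBS and 47.3 through 78.1 to 136 CPM with RGLS4326. Its spread among Pcy mice was the widest of the members in CPM, and the difference from wild type was −0.39 (95% interval −0.85 to 0.08, adjusted p = 0.128, edgeR).

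Pecam1, at chr11:106654217-106750628, and Cdh5, at chr8:104101625-104144511, encode adhesion proteins of the contacts between endothelial cells. Pecam1 averaged 48.5 ± 5.34 CPM in wild type (SD, n = 5), 41.9 ± 9.38 with PBS (SD, n = 12) and 41.3 ± 9.90 with RGLS4326 (SD, n = 14). Cdh5 averaged 27.7 ± 3.97, 27.7 ± 5.69 and 26.9 ± 6.59 CPM in the same groups. The log2 fold change against wild type in PBS-treated mice was −0.21 for Pecam1 (adjusted p = 0.223, edgeR) and 0.00 for Cdh5 (95% interval −0.32 to 0.33, adjusted p = 0.988, edgeR). Eng, at chr2:32646595-32682669, encodes a co-receptor for ligands of the TGF-beta family. It averaged 97.6 ± 14.8, 95.6 ± 16.7 and 93.7 ± 15.4 CPM, with a log2 fold change of −0.03 (95% interval −0.28 to 0.22, adjusted p = 0.832, edgeR). Eng shares 61 exon bases with Fpgs on the opposite strand, and whether the counting used strand is not given in the sources used here.

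**Figure D2:**
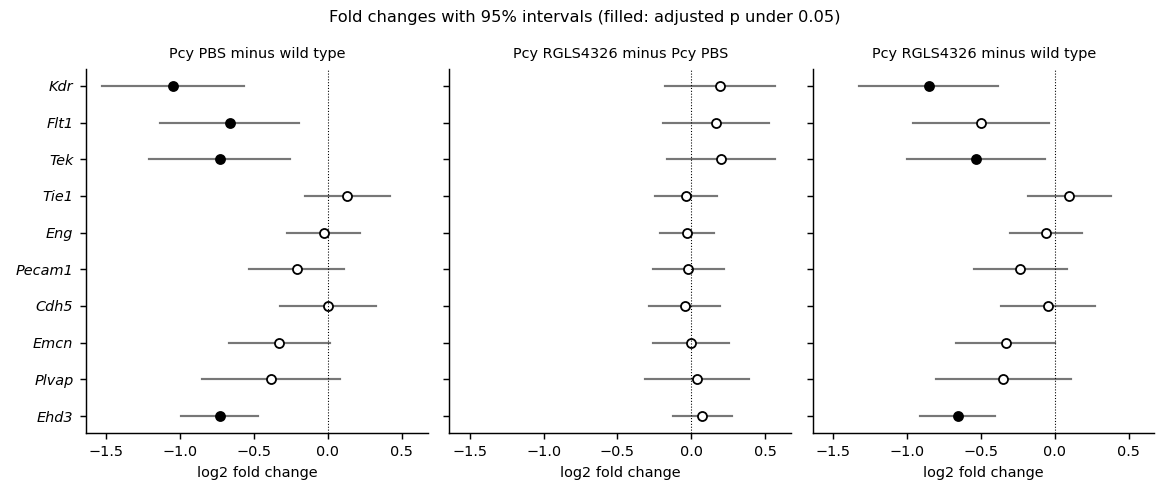
Log2 fold change (horizontal axis) of each member in the 3 comparisons, with its 95% interval as a line, and filled points where the adjusted p was under 0.05. In the left panel (PBS against wild type) Kdr, Flt1, Tek and Ehd3 are filled, in the middle panel (RGLS4326 against PBS) none is, and in the right panel (RGLS4326 against wild type) Kdr, Tek and Ehd3 are.

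The scaling decides where the zero of these differences lies. With total counts in place of TMM factors the median of all genes moved by 0.37 in PBS-treated mice against wild type, so that Cdh5, Tie1 and Eng were called higher, at 0.37, 0.50 and 0.34, and Flt1 and Tek, at −0.31 and −0.38, no longer passed. Relative to the median of all genes under that scaling, the differences were −1.07 for Kdr, −0.68 for Flt1, −0.76 for Tek and −0.74 for Ehd3, close to those under TMM. Cdh5 was at −0.01, Tie1 at 0.12 and Eng at −0.04 on the same relative scale.

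Library names fall into 3 index series, whose correspondence across groups was inferred from the names. The study's text gives fewer Pcy/CD1 and wild-type mice for its sequencing than are labelled here. Only series 1 holds the numbers it gives in all 3 groups, though series 2 and 3 hold the same number of PBS-treated mice. All labelled libraries were used. In series 1 alone, with 4 PBS-treated and 2 wild-type mice, only Ehd3 passed, at −0.54 (adjusted p = 0.00427, edgeR), and Kdr was at −0.49 (adjusted p = 0.129, edgeR). In series 2 alone, with the same numbers and holding wild-type mice 3 and 4, Kdr, Flt1 and Ehd3 passed at −1.41, −0.97 and −0.96, and Tek was at −0.94 (adjusted p = 0.0734, edgeR). With series as a term over all mice, Kdr, Flt1, Tek and Ehd3 all passed. Series 3 holds a single wild-type mouse and gave no value. With wild-type mice 3 and 4 summed as 1 library the same 4 members passed, at −0.96 for Kdr and −0.68 for Ehd3. In RGLS4326-treated mice against wild type Tek did not pass in either fit, at −0.50 (adjusted p = 0.0630, edgeR) with series as a term and −0.47 (adjusted p = 0.105, edgeR) with those mice summed, while Kdr and Ehd3 did.

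Ratios of counts within a mouse compare members with each other and do not depend on the scaling. The ratio of Kdr to Cdh5 averaged 1.90 ± 0.29 in wild type (SD, n = 5), 0.927 ± 0.19 with PBS (SD, n = 12) and 1.08 ± 0.23 with RGLS4326 (SD, n = 14). All 12 PBS-treated mice lay below the lowest wild-type ratio of 1.40, and 13 of 14 treated mice did. The ratio of Tek to Cdh5 averaged 1.23 ± 0.041 in wild type, 0.731 ± 0.19 with PBS and 0.870 ± 0.17 with RGLS4326, and every Pcy mouse of either group lay below every wild-type mouse. The ratios of Flt1 and of Ehd3 to Cdh5 were likewise below the wild-type range in all 12 PBS-treated mice. Among all other genes tested, 2.87% had a ratio to Cdh5 that separated the groups in that way. Kdr, Flt1, Tek and Ehd3 varied with Cdh5 among PBS-treated mice (Pearson r from 0.69 to 0.81), which narrows their ratios. The share over all genes is therefore not a like background for them.

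Between the partner receptors, the ratio of Tek to Tie1 averaged 0.945 ± 0.062 in wild type, 0.509 ± 0.12 with PBS and 0.6004 ± 0.13 with RGLS4326. The lowest wild-type ratio was 0.864 and the highest PBS-treated one 0.687, and 13 of 14 treated mice were below the wild-type range. The share of genes with a ratio to Tie1 that separated the groups downward was 6.37%. Tek varied with Tie1 from mouse to mouse, so this share has the same limit. Members that had not passed differed among themselves: the ratio to Cdh5 was below the wild-type range in 11 of 12 PBS-treated mice for Plvap, 9 for Pecam1, 6 for Emcn, 1 for Eng and 0 for Tie1. The ratio of Eng to Cdh5 averaged 3.53 ± 0.32, 3.49 ± 0.45 and 3.56 ± 0.37 in the 3 groups. These ratios were chosen with the fold changes known and carry no test.

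**Figure D3:**
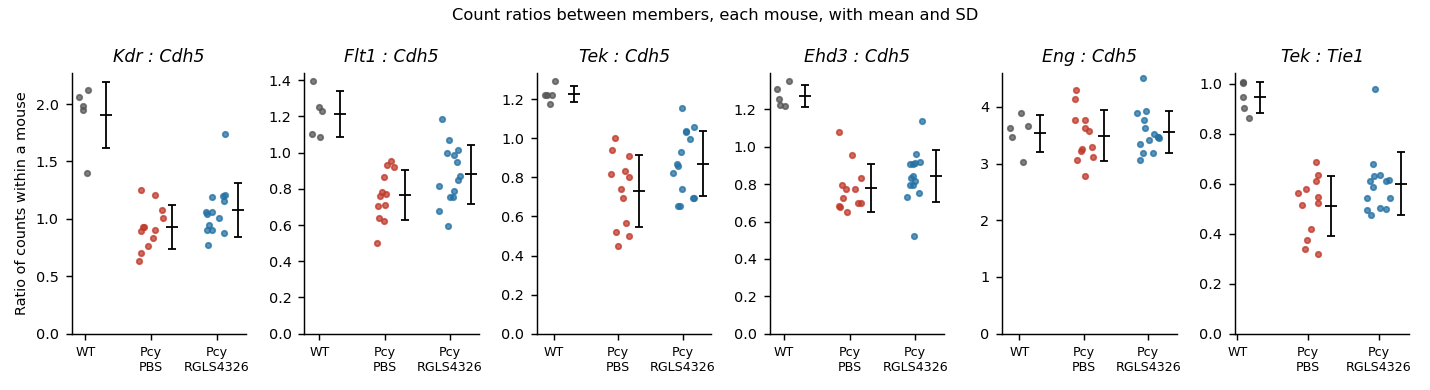
Ratio of counts of 2 members within a mouse (vertical axis, from 0, no unit), for each mouse of the 3 groups, with the mean and SD as a bar. The ratios of Kdr, Flt1, Tek and Ehd3 to Cdh5 and of Tek to Tie1 lie below the wild-type mice in all 12 PBS-treated mice, and Eng to Cdh5 does not.

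Levels can be set beside each other between genes only per length. Per kilobase of annotated exon, Plvap was the highest member in wild type at 53.3 ± 7.56 CPM per kb (SD, n = 5), followed by Eng at 24.1 ± 3.65 and Emcn at 10.6 ± 1.52. From Pecam1 at 7.79 ± 0.858 down through Tie1, Tek, Cdh5 and Kdr to Ehd3 at 5.36 ± 0.721, each neighbour in the order was within 1 SD of the next. Flt1 was lowest at 2.51 ± 0.581. In PBS-treated mice Plvap, Eng and Emcn stayed the highest at 40.8, 23.6 and 8.47 CPM per kb, and Tek, above Cdh5 in wild type, lay below it at 4.35 against 6.60. Kdr and Ehd3 were below Cdh5 in both groups.

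Between the 2 Pcy groups none of the 10 members passed the test, where 15.8% of all genes did, 9.15% higher and 6.66% lower with RGLS4326. No member had an unadjusted p under 0.05 either, and DESeq2 called none. The largest estimates were for Tek, at 0.20 (95% interval −0.17 to 0.57, adjusted p = 0.421, edgeR), and Kdr, at 0.20 (95% interval −0.18 to 0.57, adjusted p = 0.444, edgeR). Both intervals include 0 and reach up to 0.57. Mouse 9 carried much of these estimates, which were 0.10 for Tek and 0.05 for Kdr without it, and neither passed. Eng had the narrowest interval, from −0.21 to 0.15. The median over the members was 0.02, and over all genes −0.00.

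Against wild type, RGLS4326-treated mice had 3 members lower where 32.4% of genes were, and the same 3 passed the larger size threshold where 11.3% did. Kdr fell by 0.85 (adjusted p = 0.00199, edgeR), Ehd3 by 0.66 (adjusted p = 4.95e-05, edgeR) and Tek by 0.53 (adjusted p = 0.0428, edgeR). Flt1 was at −0.50 (adjusted p = 0.0519, edgeR). This comparison and the PBS one share the wild-type mice. The Tek call was not firm, since it was lost in 12 of 19 fits that left out 1 mouse, and without RGLS4326-treated mouse 9 the count rose to 5, with Flt1 (adjusted p = 0.0112, edgeR) and Emcn (adjusted p = 0.0203, edgeR) added. With total counts in place of TMM factors Tek, at −0.29 (adjusted p = 0.227, edgeR), did not pass, and Kdr and Ehd3 did. Tie1 was then called higher, at 0.35 (adjusted p = 0.0259, edgeR).

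Members varied together from mouse to mouse. Among PBS-treated mice all 45 pairs of members had a positive Pearson r of log2(CPM + 1), from 0.60 to 0.99 with a median of 0.86, and all passed a permutation test adjusted over the 45 pairs. Over all pairs of genes tested in those mice, 49.9% had a positive r and 11.6% an r as high as the lowest member pair. Spearman's rho ran from 0.55 to 0.99 and passed for 42 pairs, and without the 2 mice farthest from the median r ran from 0.29 to 0.98. The tightest pair was Kdr with Tek (r = 0.99, rho = 0.99, 12 mice, both permutation p = 1e-05, the smallest that the permutations can give, adjusted p = 7.5e-05). The loosest was Ehd3 with Tek (r = 0.60, permutation p = 0.0402, adjusted p = 0.0402, and rho = 0.57, adjusted permutation p = 0.0577). In RGLS4326-treated mice all 45 pairs passed by both measures, with r from 0.65 to 0.97, where 7.32% of all gene pairs had an r as high as the lowest member pair. Values of a mouse share 1 library and 1 scaling, and with total counts 40 of the 45 pairs passed in PBS-treated mice.

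Over the 31 mice, as deviations from group means, the non-members most like the mean of the members were Ppap2a (r = 0.96), Tmem204 (0.95), Epas1 (0.94), Ednrb (0.93) and Arap3 (0.93), out of 13784 genes whose average reached 1 CPM. Within the group, each member against the mean of the other members ranged from 0.77 for Ehd3 to 0.96 for Pecam1. These correlations describe the 31 libraries and carry no test.

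Some members were lower in the PBS-treated mice with more Lcn2, the transcript of a protein secreted by injured tubules. In PBS-treated mice all 10 had a negative r with Lcn2, with a median of −0.61 against 0.04 over all genes tested. By unadjusted permutation p under 0.05, 5 of the 10 were negatively correlated with Lcn2, where 24.4% of 15184 genes tested were. After adjustment over the 10 members 4 passed: Tek (r = −0.87, rho = −0.80, permutation p = 0.00038, adjusted p = 0.0038), Kdr (r = −0.84, rho = −0.78, permutation p = 0.00078, adjusted p = 0.0039), Plvap (r = −0.81, rho = −0.77, permutation p = 0.00198, adjusted p = 0.0066) and Flt1 (r = −0.72, rho = −0.61, permutation p = 0.00937, adjusted p = 0.0234). By rho, Tek, Kdr and Plvap passed (adjusted permutation p = 0.0172 for each) and Flt1 did not (adjusted permutation p = 0.101). Without the 2 mice farthest from the median of Lcn2, r was −0.81 for Tek, −0.78 for Kdr, −0.76 for Plvap and −0.62 for Flt1. Ehd3, the member with the clearest separation from wild type, had an r of only −0.26 (rho = −0.09, permutation p = 0.422, adjusted p = 0.422). In RGLS4326-treated mice 7 members passed by r, unadjusted and adjusted alike, where 23.5% of genes had a negative r with unadjusted permutation p under 0.05. By rho 4 passed, Flt1 (−0.71), Ehd3 (−0.70), Plvap (−0.74) and Tek (−0.71), with an adjusted permutation p of 0.0185 each. Without mouse 9 r stayed negative for all 10, from −0.64 to −0.15, 3 members had an unadjusted permutation p under 0.05 where 18.9% of genes did with a negative r, and none passed after adjustment. With total counts in place of TMM factors 3 members passed in PBS-treated mice, and r ran from −0.78 to 0.12, so the sign is not fixed for every member.

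**Figure D4:**
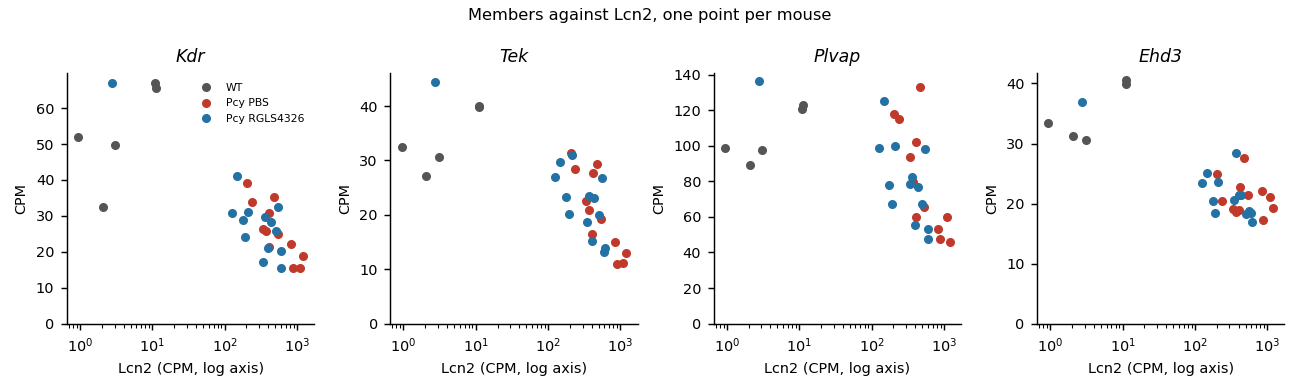
CPM of 4 members (vertical axes, from 0) against CPM of Lcn2 (horizontal log axis), 1 point for each mouse. Among PBS-treated mice Kdr, Tek and Plvap are lower where Lcn2 is higher and Ehd3 is nearly level, and a single RGLS4326-treated mouse has Lcn2 in the wild-type range, with Tek and Plvap above every wild-type mouse.

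Genes that act with the members were called in both directions, in 6 higher and 6 lower of 20 tested over 3 lists, which is no more than the 37.7% and 36.6% of all genes. Of 7 genes for VEGF ligands and co-receptors, Vegfa, the main ligand of Kdr, fell in PBS-treated mice by 0.58 (adjusted p = 3.04e-06, edgeR) from 390 ± 18.4 to 260 ± 36.6 CPM, while Pgf and Vegfb, ligands of Flt1, rose by 1.40 and 0.18. Of 4 angiopoietin and Tie regulator genes tested, Angpt1, the activating ligand of Tek, fell by 0.40 (adjusted p = 0.0181, edgeR) and Svep1 rose by 0.65, and Ptprb, a phosphatase that acts on Tek, was at −0.33 (adjusted p = 0.0765, edgeR). Of 9 genes of endoglin and ALK1 signalling tested, 3 rose and 4 fell. Acvrl1, the receptor that works with endoglin, rose by 0.80, while Smad9 fell by 2.05 and Bmpr2 by 0.47. Pgf and Smad9 had few reads, with 7 to 14 counts of Pgf in wild-type and 6 to 18 of Smad9 in PBS-treated mice. Between the Pcy groups Bmpr2 was the only gene of these 3 lists that passed, at 0.17 (adjusted p = 0.0467, edgeR).

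Of 20 other pan-endothelial genes 8 rose and 1 fell in PBS-treated mice, with a median log2 fold change of −0.02. The share that rose is close to the 37.7% of all genes called higher, while 1 of 20 is well below the 36.6% called lower. The difference between this list and the members was not tested. The junction gene Cldn5 rose by 1.21 and the surface gene Ecscr by 1.37, and the junction gene Esam rose by 0.41. Sox7, which encodes an endothelial transcription factor, fell by 0.47 (adjusted p = 0.0491, edgeR). Of 4 tested genes linked to glomerular endothelium, where Ehd3 is also placed, Hecw2 fell by 2.33 and Gata5 by 0.61, while Tbx3 rose by 0.62. All 3 genes of peritubular and vasa recta endothelium rose, with Slc14a1, a urea transporter, at 1.81, Aplnr at 0.77 and Igfbp7 at 0.22. Of 8 arterial genes 5 rose, among them Sox17 at 0.85, Bmx at 0.94 and Efnb2 at 0.77, and of 4 venous genes tested Selp rose by 2.26 and Ephb4 by 0.20, while Nr2f2 fell by 0.19. Both inducible adhesion genes tested rose, Vcam1 by 3.23 and Icam1 by 1.32. Several of these genes are also made outside endothelium, Vcam1 and Slc14a1 among them. Selp and Gata5 had few reads, with 1 to 5 counts of Selp in wild-type and 4 to 31 of Gata5 in PBS-treated mice.

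With RGLS4326 against PBS, 1 of the 20 pan-endothelial genes fell, Cldn5 by 0.38 (adjusted p = 0.0383, edgeR), where 6.66% of all genes were called lower. So did 2 of 8 arterial genes, Gja5 and Efnb2, each by 0.35, 1 of 3 peritubular and vasa recta genes, Slc14a1 by 0.38, and 1 of 4 venous genes, Ephb4 by 0.16. These 5 are genes that were higher in PBS-treated than in wild-type mice, and both comparisons use the PBS-treated mice.

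**Figure D5:**
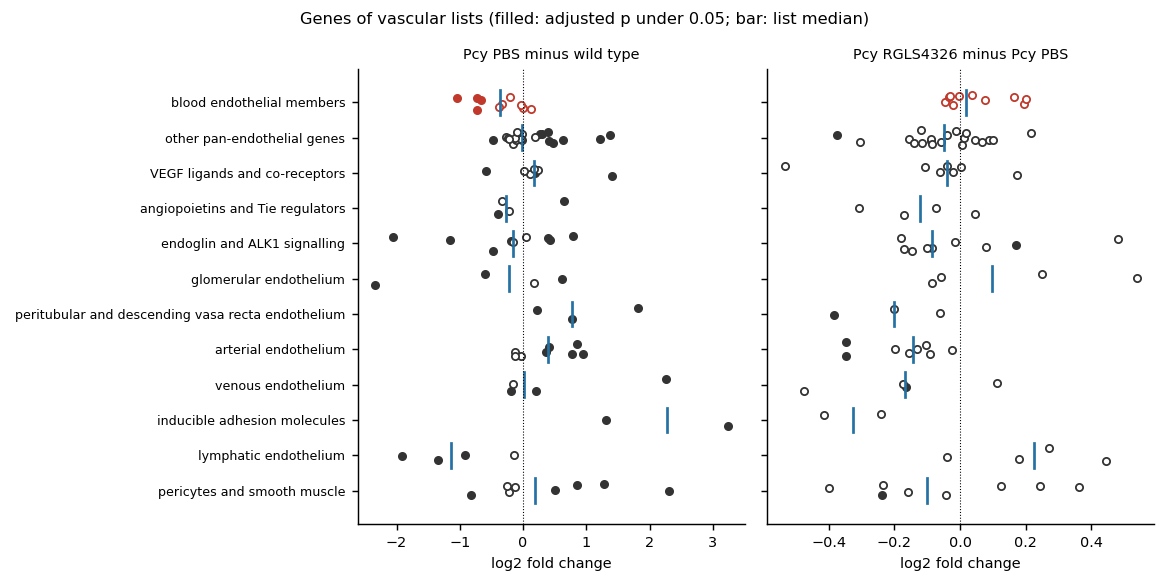
Log2 fold change (horizontal axis) of each gene in 12 vascular lists, in PBS-treated Pcy against wild-type mice at left and RGLS4326 against PBS at right, with filled points where the adjusted p was under 0.05 and a bar at the list's median. The members lie mostly left of 0 at left and around 0 at right, while arterial, peritubular and adhesion genes lie mostly right of 0 at left.

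Markers of other kidney cells moved in the same comparison, and their part in the members' differences was not tested. All 5 proximal tubule genes fell in PBS-treated mice, with their summed level between 4221 and 8504 CPM against 13946 to 15119 CPM in wild type. All 7 leukocyte genes rose, with sums of 192 to 280 CPM against 144 to 150 CPM. Of 8 pericyte and smooth muscle genes 4 rose, among them Tagln, Acta2 and Cspg4, and Myh11 fell, with sums of 233 to 513 CPM against 189 to 233 CPM. Of 7 podocyte genes 4 rose, Synpo and Wt1 among them, and the defining gene Nphs1 was at −0.22 and did not pass, and the sums overlapped at 227 to 396 CPM against 197 to 338 CPM. Of 4 lymphatic endothelial genes tested 3 fell, Reln, Mmrn1 and Prox1, and the summed level of the list was 13.2 to 23.8 CPM against 23.9 to 28.7 CPM, while Ccl21a had 0 counts in every mouse and Lyve1 at most 15. Mmrn1 had 1 to 10 counts in PBS-treated mice. Of 2 platelet genes tested Pf4 rose, both tubular injury genes rose, and Alas2, the single red cell gene tested, fell by 2.76.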

How the data were processed

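RNA was sequenced from whole kidneys in 31 libraries with a stranded mRNA kit as paired 75-base reads. Per the labels and the study's methods, the authors trimmed the reads with Trim Galore, aligned them to GRCm38/mm10 with STAR and deposited counts of uniquely mapped reads per gene made with HTSeq. The submitters' processing notes list HTSeq 0.6.1, SAMtools 1.1, Picard 1.119 and FastQC 0.11.2. Rows that name no gene were left out of library sizes: reads in no feature were 8.39% to 10.1% and reads not uniquely placed 17.8% to 21.2% of all rows' counts. Each library is called a mouse throughout. The labels name 5 wild-type mice but do not say that each Pcy library is a separate animal, so p-values measure the spread between these samples.

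The members and the gene lists were chosen with earlier results of these data known. Genes were filtered with filterByExpr (15185 kept), scaled with TMM and tested with edgeR 4.0.16 in R 4.3.3 by a quasi-likelihood fit with 1 coefficient per group over all 31 mice. Adjusted p is Benjamini-Hochberg over all genes tested. The study's larger size threshold, an absolute log2 fold change over 0.5, gave a second count. All 10 members were named, and genes of other lists where they passed or where a list turned on them. Correlations used log2(CPM + 1) and permutation tests. The pipeline was tested on simulated data. Alternatives were DESeq2 1.42.0, other scalings and filters, each mouse left out, index series and a replicate block. Counting intervals cover counting error only. Values of some single genes in the other lists are not reported here.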

Additional observations from a re-analysis of the deposited data

Results flagged for a closer look

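Of 16 measures examined in the 5 wild-type mice, 2 had a mouse far from the others by Dixon's criterion for 5 samples, which chance meets in about 1 of 20. Emcn was at 43.1 CPM in wild-type mouse 1, the lowest of 5, with a gap of 0.788 of the group's range. The ratio of Kdr to Cdh5 was 1.40 in wild-type mouse 2, the lowest of 5, with a gap of 0.764 of the range. The groups of 12 and 14 mice are too large for this criterion and were not examined.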

How the results depend on the processing

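In PBS-treated mice against wild type Kdr, Flt1, Tek and Ehd3 passed in all 17 fits that left out 1 mouse, with 4 to 5 members called, Emcn being added without PBS-treated mouse 6 or 11 or wild-type mouse 1. The count was 1 in index series 1 alone, and the cause was not tested. RGLS4326 against PBS gave 0 members in all 26 such fits. RGLS4326 against wild type gave 2 to 5 over 19 fits, and 1 in series 1 alone, 0 in series 2 alone, and 6 with the replicate block or with the mice numbered in both groups and no block, and the cause was not tested. Deviations of same-numbered mice had a mean correlation of −0.093 between PBS and RGLS4326 (−0.49 to 0.53), 0.095 between PBS and wild type (−0.016 to 0.25) and −0.030 between RGLS4326 and wild type (−0.14 to 0.11). Since not every pair was above 0.1 in any of these, the numbers were not taken to pair the mice. With the replicate block PBS against wild type gave 4 members and RGLS4326 against PBS 0, where 11 genes of all passed against 530 for the same mice without it. With the longer miR-17 site alone the count of members was 0. Without RGLS4326-treated mouse 9 the count of members correlated with Lcn2 in that group was 0.

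Directions turned only for members that had not passed in that comparison. In PBS against wild type they turned with total counts for Pecam1 (0.15), Emcn (0.030) and Eng (0.34), and for Eng with upper-quartile scaling (0.091), an average of at least 1 CPM (0.0096), the block (0.088), the mice numbered in both groups (0.079) and wild-type mice 3 and 4 as 1 library (0.028), in series 1 for Pecam1 (0.0165) and Eng (0.30), and in series 2 for Cdh5 (−0.20) and Tie1 (−0.078). In RGLS4326 against PBS they turned with total counts for Ehd3 (−0.045) and Plvap (−0.073), in series 1 for Kdr (−0.12), Flt1 (−0.072), Ehd3 (−0.11), Plvap (−0.13) and Tek (−0.013), in series 2 for Plvap (−0.025), and in series 3 for Pecam1 (0.052), Emcn (0.16), Tie1 (0.081) and Eng (0.063). In RGLS4326 against wild type they turned with total counts for Pecam1 (0.017), Cdh5 (0.21) and Eng (0.19), with upper-quartile scaling for Cdh5 (0.048) and Eng (0.033), in series 1 for Cdh5 (0.19) and Eng (0.22), in series 2 for Tie1 (−0.20), and with wild-type mice 3 and 4 as 1 library for Cdh5 (0.0088). Leaving out 1 mouse, values crossed 0 in PBS against wild type for Cdh5 (−0.055 to 0.069) and Eng (−0.088 to 0.033). In RGLS4326 against PBS they did for Pecam1 (−0.074 to 0.038), Cdh5 (−0.095 to 0.012), Emcn (−0.072 to 0.054), Plvap (−0.037 to 0.12), Tie1 (−0.070 to 0.023) and Eng (−0.062 to 0.0061), and in RGLS4326 against wild type for Cdh5 (−0.10 to 0.024) and Eng (−0.12 to 0.0044).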
